A study of Mus musculus with 12 samples.

Results

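The WASP family and the Arp2/3 complex are the genes through which a cell builds branched actin. The members were taken by symbol from a list of 10 genes, of which 5 encode WASP family proteins (Was, Wasl, Wasf1, Wasf2 and Wash1, the gene now called Washc1) and 5 encode subunits of the Arp2/3 complex (Arpc1b, Arpc2, Arpc3, Actr2 and Actr3). Of these, 9 had a row among the 14096 genes listed for each library, and Wasf1 is not analysed here. Glomerular mRNA was sequenced in 12 male eNOS-/- mice on a C57BL/6J background, in 4 groups of 3 mice, to ask how diabetes and arctigenin (ATG, a plant lignan) change glomerular gene expression. Diabetic mice had received STZ (streptozotocin, which kills insulin-producing cells) at 50 mg/kg on each of 5 days from 8 weeks of age, and nondiabetic mice had received citrate buffer. From 10 weeks after induction, mice of both kinds were gavaged daily for 8 weeks with vehicle (5% DMSO) or with ATG at 40 mg/kg dissolved in it, and all were killed 18 weeks after induction. All 4 groups lacked eNOS (endothelial nitric oxide synthase), and no wild-type library was analysed here. The labels also describe digestion of the glomeruli to single cells and a sort for a fluorescent protein, which the study's methods do not mention, and the glomeruli are taken as whole here. In each group, the mean log2 value of 10 podocyte markers was between 13.8 and 14.5, and that of 10 endothelial markers was between 12.8 and 13.9. The 15 tubule markers had a mean of 13.5 and 14.2 in the nondiabetic groups with vehicle and with ATG, and of 12.1 and 12.4 in the diabetic groups. In ATG-treated nondiabetic mice this mean was above that of the podocyte markers (13.8).

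The Arp2/3 complex binds to the side of an existing actin filament and starts a new one as a branch. On its own it is nearly inactive, and the WASP family proteins switch it on where adaptor proteins or membrane lipids recruit them. Branched actin pushes the cell edge forward, drives endocytosis and forms part of the cortex of podocyte foot processes, the cell extensions that cover the glomerular filter.

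The members lie on 7 chromosomes of mm10 (GRCm38), and GENCODE M21 lists each as a protein-coding gene. Of the WASP family, Was (Entrez 22376) lies on the minus strand at chrX:8081466-8090491, Wasl (73178) on the minus strand at chr6:24632686-24664995, Wasf2 (242687) on the plus strand at chr4:133130633-133198330 and Wash1 (68767) on the plus strand at chr17:66111645-66120503. The genes for the actin-related subunits are Actr2 (66713), on the minus strand at chr11:20062304-20112951, and Actr3 (74117), on the minus strand at chr1:125392905-125435727. Arpc1b (11867) lies on the plus strand at chr5:145114256-145128186, Arpc2 (76709) on the plus strand at chr1:74236550-74268213 and Arpc3 (56378) on the plus strand at chr5:122391878-122406181. These positions span each gene from its first to its last deposited base, introns included. The reads of Wasl were not whole numbers in 12 of 12 mice and those of Wash1 in 7 of 12, for which the files give no reason, and their values are less certain. The other 7 members had whole reads in 12 of 12 mice.

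The start regions of the members shared a short sequence. In RefSeq promoter windows of the 250 bases before each start (GRCm38.p6), the letters CGGAAG, the core bound by ETS factors, or their reverse complement CTTCCG were present in 8 of 9 members, against 13.6% of all 32851 windows and 29.3% of the 8970 windows with at least 15 CG dinucleotides. Was, which had 4 CG in its window against 15 to 33 in the others, held neither spelling. The match nearest the start is shown for each member that had one, in 30 bases read on the gene's own strand with the motif in capitals, because 4 of the 5 members that rose with diabetes and all 4 that were not called hold it:
Wasl (chr6:24665086-24665115, minus strand): ccttgccgcttcCGGAAGgggcggggcctg
Wasf2 (chr4:133130383-133130412, plus strand): ttgCGGAAGtcgctcgggtggagttcccgg
Wash1 (chr17:66111540-66111569, plus strand): agcccggagagcCGGAAGtcggagagccga
Arpc1b (chr5:145114010-145114039, plus strand): cccgatctcgggCTTCCGccctctaagcgc
Arpc2 (chr1:74236487-74236516, plus strand): aagtgggtgtgagagCGGAAGtggccggct
Arpc3 (chr5:122391848-122391877, plus strand): gcgcagccggagcaagtcacCGGAAGtgcg
Actr2 (chr11:20113057-20113086, minus strand): caagcgcagcccCGGAAGcagaacgaggcg
Actr3 (chr1:125435728-125435757, minus strand): tgctcgctcctcccacccggaacCGGAAGt

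The first base of the motif lay 7 bases before the start in Actr3, 10 in Arpc3 and 15 in Arpc2, and between 93 and 247 bases before it in the other 5. In Wasl the match shown overlaps a second match on the opposite strand by the letters CG. The GC box GGGCGG or its reverse complement CCGCCC was present in 7 of 9 members, against 32.7% of all windows and 75.9% of those with at least 15 CG. TATAAA or TTTATA was present in 0 of 9 members, against 12.4% of all windows and 3.10% of those with at least 15 CG. The motifs were chosen after the promoters had been read, and a match describes letters and not a bound site. The RefSeq start of Arpc2 lies 33 bases from its deposited start. GENCODE M21 begins the genes of Arpc2 and Wash1 earlier, at chr1:74236084 and chr17:66111545. By that annotation the motif shown for these genes lies inside the gene and not before it.

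The 9 members were expressed in every mouse, and their levels spanned a wide range. Divided by the deposited transcript length, as RPKM over the listed genes (reads scaled to transcript length and to the library's reads), the median over 12 mice was 213 for Arpc2, which with Arpc4 forms the clamp on the mother filament, and 170 for Arpc3, which links the product of Actr3 to that filament. Arpc1b, one of the alternative subunits that contact the WASP family proteins, followed with 106. Actr3 and Actr2, which mimic the first actin pair of the new branch, had 93.7 and 77.3. The activators had lower levels, with 49.2 for Wasl (N-WASP, the widely expressed family member), 29.4 for Wasf2 (a WAVE protein, which acts downstream of Rac at the cell edge), 15.3 for Wash1 (the WASH protein, which acts on endosomes) and 1.78 for Was (WASP, the family member of blood cells).

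Each member lay above the next in 12 of 12 mice, except that Arpc1b exceeded Actr3 in 8 of 12. Arpc1b had a median of 52.6, below Actr2, and Wasl one of 13.2, below Wasf2 and Wash1, when GENCODE M21 exonic lengths were used in place of the deposited ones (3117 against 1551 bases for Arpc1b and 4878 against 1304 bases for Wasl). The place of these 2 genes in the order therefore depends on the length. Arpc2, Arpc3 and Was kept their places under both lengths. With 78 to 144 reads per mouse, Was ranked at percentile 7.90 of all listed genes by mean log2 value, where Arpc2, with 6118 to 11525 reads, ranked at percentile 97.2. Every listed gene reached a value of 100 on the linear scale (log2 undone) in some mouse. These percentiles are therefore ranks among genes that reached that level.

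**Figure D1:**
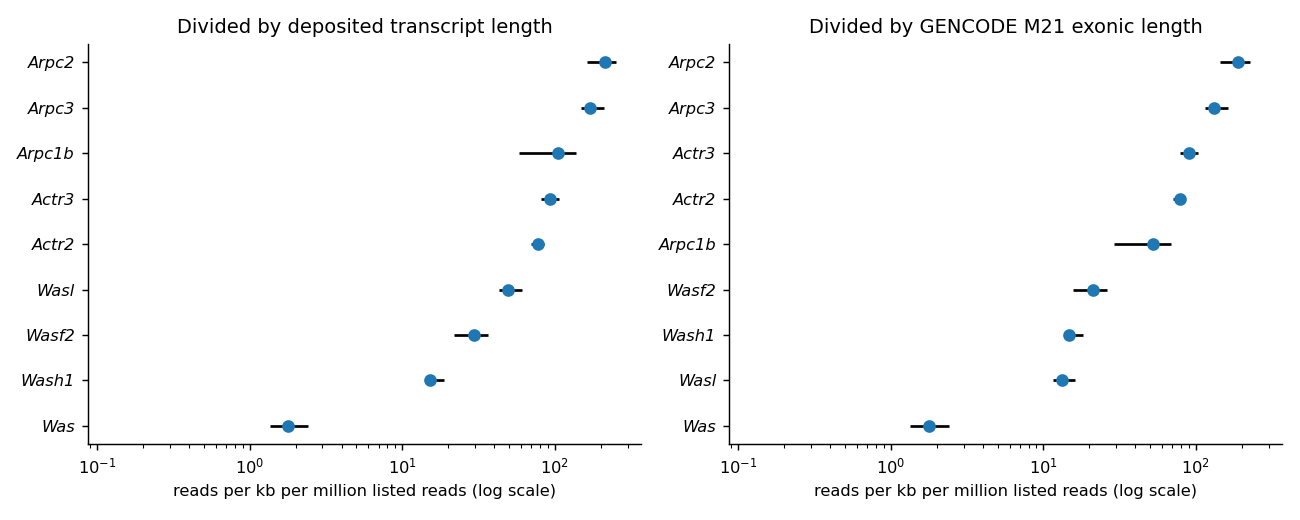
Level of each member in RPKM over the listed genes (log axis), divided by the deposited transcript length (left) or by the GENCODE M21 exonic length (right). Points are medians and lines run from the lowest to the highest of 12 mice. Arpc2 is highest, with 213 and 190, and Was lowest, with 1.78 and 1.77, while Arpc1b and Wasl change places with the length used.

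Diabetes in vehicle-treated mice was compared first. Of the 9 members, 5 rose and none fell in limma (adjusted over all genes by Benjamini-Hochberg, called at p under 0.05). Of all 14096 genes, 18.9% were called in this comparison, 10.2% as higher. The 5 were Arpc1b (1.53-fold), Was (1.44-fold), Arpc3 (1.29-fold), Arpc2 (1.24-fold) and Wash1 (1.21-fold). In 7 of 9 members every diabetic mouse lay above every nondiabetic mouse, where 23% of all genes did so. The members' median log2 difference was 0.28, against 0.0075 over all genes.

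Among the structural subunits, Arpc1b differed most. Its log2 value was 11.82, 12.09 and 11.98 in vehicle-treated nondiabetic mice 1 to 3, and 12.62, 12.61 and 12.51 in vehicle-treated diabetic mice 1 to 3. All diabetic mice lay well above the nondiabetic mice, and the groups did not overlap. The log2 difference was 0.62 (SE 0.11, 95% interval 0.36 to 0.87, adjusted p = 0.00753).

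The log2 value of Arpc3 was 11.98, 12.11 and 12.08 in nondiabetic and 12.46, 12.44 and 12.38 in diabetic mice. Here too the groups were apart, with the diabetic mice within a narrow range, and the log2 difference was 0.37 (SE 0.073, 95% interval 0.21 to 0.53, adjusted p = 0.00922). For Arpc2, the log2 value was 13.21, 13.21 and 13.15 in nondiabetic mice and 13.55, 13.45 and 13.49 in diabetic mice. The diabetic mice were again all higher. The log2 difference of Arpc2 was 0.31 (SE 0.073, 95% interval 0.14 to 0.47, adjusted p = 0.0186).

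The actin-related subunits differed less. Actr2 had log2 values of 12.95 to 13.01 in nondiabetic and 13.09 to 13.16 in diabetic mice, and Actr3 had 12.69 to 12.79 and 12.84 to 12.99. Neither gene's groups overlapped, yet neither passed the test. The log2 difference was 0.13 (SE 0.057, 95% interval 0.0066 to 0.26, adjusted p = 0.123) for Actr2 and 0.16 (SE 0.072, 95% interval 0.0037 to 0.32, adjusted p = 0.133) for Actr3.

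The activators divided into a pair that rose and a pair that did not pass the test. The log2 value of Was was 6.41, 6.85 and 6.81 in nondiabetic and 7.24, 7.24 and 7.17 in diabetic mice, on 78, 107 and 102 reads against 131, 141 and 144. Nondiabetic mouse 1 lay lowest, and the groups did not overlap. The log2 difference of Was was 0.53 (SE 0.16, 95% interval 0.18 to 0.88, adjusted p = 0.0409).

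Wash1 had log2 values of 10.31, 10.33 and 10.38 in nondiabetic mice and of 10.58, 10.65 and 10.61 in diabetic mice. Both groups were tight and lay apart, by a log2 difference of 0.28 (SE 0.057, 95% interval 0.15 to 0.40, adjusted p = 0.0107). Wasl had log2 values of 10.88 to 11.06 in nondiabetic and 10.71 to 11.16 in diabetic mice, and Wasf2 had 11.78 to 11.96 and 11.73 to 12.05. In both genes the diabetic mice reached lower as well as higher than the nondiabetic mice. Their log2 differences were -0.063 (SE 0.11, 95% interval -0.31 to 0.19, adjusted p = 0.729) and -0.028 (SE 0.12, 95% interval -0.29 to 0.23, adjusted p = 0.889).

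**Figure D2:**
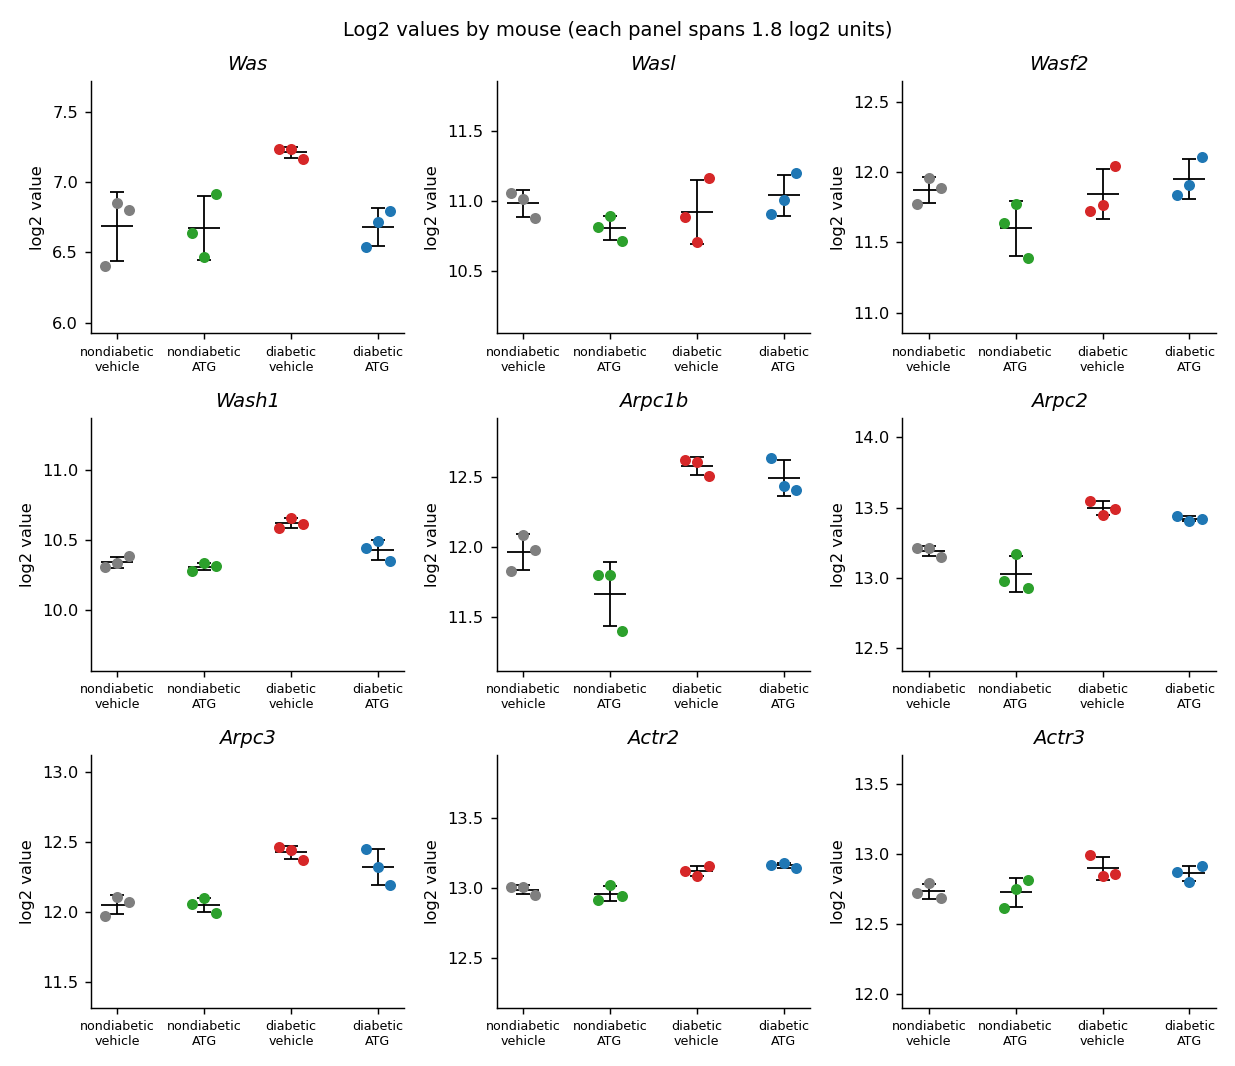
Deposited log2 value of the 9 members in each of 12 mice (points, in order of replicate number), with the mean and SD of each group of 3 mice. Every panel spans the same number of log2 units. Vehicle-treated diabetic mice lie above vehicle-treated nondiabetic mice without overlap in 7 panels, and the groups overlap for Wasl and Wasf2.

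The calls of Arpc1b and Arpc3 remained when any 1 of the 12 mice was left out. Without vehicle-treated nondiabetic mouse 1, 2 members were called (Arpc1b and Arpc3), without vehicle-treated nondiabetic mouse 3 or vehicle-treated diabetic mouse 1, 3 were called (Arpc1b, Arpc3 and Wash1), and Was lost its call in 9 of 12 such fits (adjusted p from 0.0288 to 0.151). The number of all genes called, 2659, moved as well, to 801 without vehicle-treated nondiabetic mouse 1, 1587 without mouse 2 and 1262 without mouse 3 of that group, and 1003 without vehicle-treated diabetic mouse 1, and it was at most 3357, without ATG-treated nondiabetic mouse 2.

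Markers of other cell types moved with diabetes in the same libraries. Of the leukocyte markers, 17 of 20 were listed (Cd3e, Cd79a and Ms4a1 were not), 7 of 17 rose and 17 of 17 had a positive log2 difference, as did 51.2% of all genes. Their summed level was 219 to 332 RPM (relative to the reads on listed genes) in vehicle-treated nondiabetic mice and 382 to 506 in vehicle-treated diabetic mice. Of 15 tubule markers 11 fell, and their summed level was 12202 to 15192 RPM in vehicle-treated nondiabetic and 2710 to 7977 in vehicle-treated diabetic mice. Of 10 endothelial markers 4 rose, of 10 mesangial markers 1 rose and 2 fell, 3 of the 5 listed erythrocyte markers rose, and 0 of 10 podocyte markers passed the test in limma. In glomerular RNA, more cells of a type and more RNA per cell cannot be told apart.

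With the mean of the leukocyte markers as a covariate, 0 of 9 members were called, as were 86 of all genes. The log2 difference in that fit was 0.50 (SE 0.14, adjusted p = 0.111) for Arpc1b, 0.47 (SE 0.21, adjusted p = 0.228) for Was, 0.29 (SE 0.077, adjusted p = 0.0981) for Wash1, 0.28 (SE 0.088, adjusted p = 0.127) for Arpc3 and 0.27 (SE 0.099, adjusted p = 0.156) for Arpc2. With the tubule markers as a covariate, 0 of 9 members and 295 of all genes were called, and the log2 difference of the same 5 members was between 0.23 (Arpc2) and 0.67 (Arpc1b). In that fit the log2 difference of Wasl was -0.44 (SE 0.13, adjusted p = 0.0849) and that of Wasf2 was -0.37 (SE 0.15, adjusted p = 0.185), both below the intervals given above for these genes without a covariate. The SE of these 5 log2 differences was 0.057 to 0.16 without a covariate, 0.077 to 0.21 with the leukocyte markers and 0.093 to 0.27 with the tubule markers.

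Of 5 subunits of the Arp2/3 complex that were not among the members, 2 rose with diabetes, where 18.9% of all genes were called. Arpc4 (log2 difference 0.31, SE 0.071, adjusted p = 0.0164) and Arpc5 (0.37, SE 0.077, adjusted p = 0.0114) rose. Their groups did not overlap. Arpc1a, the alternative to Arpc1b, had a log2 difference of 0.030 (SE 0.067, adjusted p = 0.784), and Arpc5l, the alternative to Arpc5, one of 0.11 (SE 0.084, adjusted p = 0.358). That of Actr3b, the alternative to Actr3, was -0.24 (SE 0.25, adjusted p = 0.535) on 39 to 101 reads per mouse. Actr3b reached the linear value of 100, which every listed gene reached in some mouse, only in vehicle-treated nondiabetic mice. Its listing thus rests on that group, and no direction is given for it.

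Within a mouse, Arpc1b was set against Arpc1a as the difference of their log2 values, a pair chosen after its values were seen. It was 0.067, 0.35 and 0.16 in vehicle-treated nondiabetic mice and 0.85, 0.71 and 0.78 in vehicle-treated diabetic mice. In ATG-treated mice it was 0.026, -0.026 and -0.51 without diabetes and 0.79, 0.67 and 0.71 with it. The 6 diabetic mice thus all lay above the 6 nondiabetic mice, whichever gavage they had received. The difference between the vehicle-treated groups was 0.59, with an exact two-sided permutation p of 0.1, the smallest that 3 mice against 3 allow. The other pairs of alternative subunits overlapped between the vehicle-treated groups, with a difference of 0.26 (exact permutation p = 0.2) for Arpc5 minus Arpc5l and of 0.40 (exact permutation p = 0.3) for Actr3 minus Actr3b. The last pair rests on Actr3b, which is listed only through its values in vehicle-treated nondiabetic mice.

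**Figure D3:**
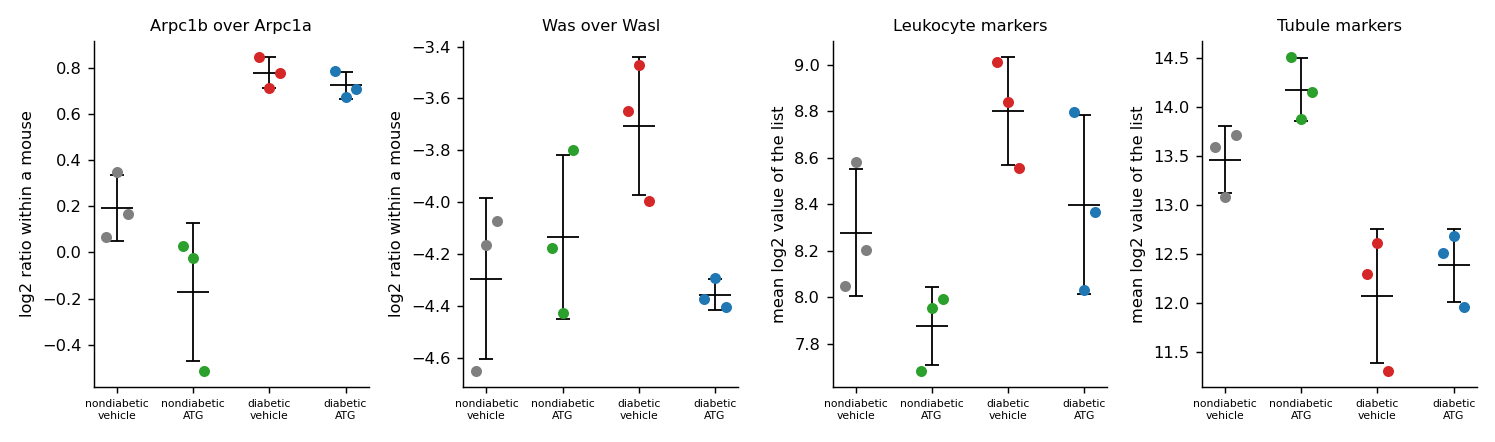
Log2 value of Arpc1b minus that of Arpc1a and of Was minus that of Wasl within each mouse (left panels), and mean log2 value of 17 leukocyte and 15 tubule markers (right panels). Points are mice, with the mean and SD of each group of 3, and the axes do not start at 0. The Arpc1b to Arpc1a ratio is between 0.67 and 0.85 in the 6 diabetic mice and between -0.51 and 0.35 in the 6 nondiabetic mice.

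Of 42 listed genes that work with the members, 9 rose and 1 fell with diabetes, where 18.9% of all genes were called and 10.2% as higher. Their median log2 difference was 0.13. Hcls1, the cortactin relative of blood cells and an activator of the complex, rose by a log2 difference of 0.86 (SE 0.096, adjusted p = 0.00180), while Cttn, the widely expressed cortactin, had one of 0.074 (adjusted p = 0.502). Among 8 partners of the WAVE proteins, 2 rose, namely Nckap1l, the blood-cell form of Nckap1 (log2 difference 0.45, SE 0.13, adjusted p = 0.0357), and Abi3 (0.60, SE 0.15, adjusted p = 0.0197). None of the 4 partners of WASH passed the test, although Wash1 itself rose.

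Among 13 listed activators and binding partners of WASP, Wipf1, which encodes WIP, the chaperone of WASP, rose (0.40, SE 0.080, adjusted p = 0.00994) and its relative Wipf2 fell (-0.21, SE 0.063, adjusted p = 0.0429). Among 7 genes that oppose the complex or take branches apart, 3 rose. Coro1a, the coronin of blood cells, had the largest log2 difference of the 42 genes (1.12, SE 0.18, adjusted p = 0.00456). Coro1c (0.52, SE 0.083, adjusted p = 0.00453) and Gmfg, which removes branches (0.62, SE 0.12, adjusted p = 0.00775), were the others. Other genes of these lists that are known from blood cells were not called, namely Rac2 (0.45, SE 0.21, adjusted p = 0.143) and Btk (0.061, SE 0.24, adjusted p = 0.879). The study took Was and Wash1 from this sequencing to PCR and reported that their changes with ATG were seen there too. Its results name isolated glomeruli as the RNA source, and its methods name kidney cortex. These 2 members are therefore not an independent choice.

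**Figure D4:**
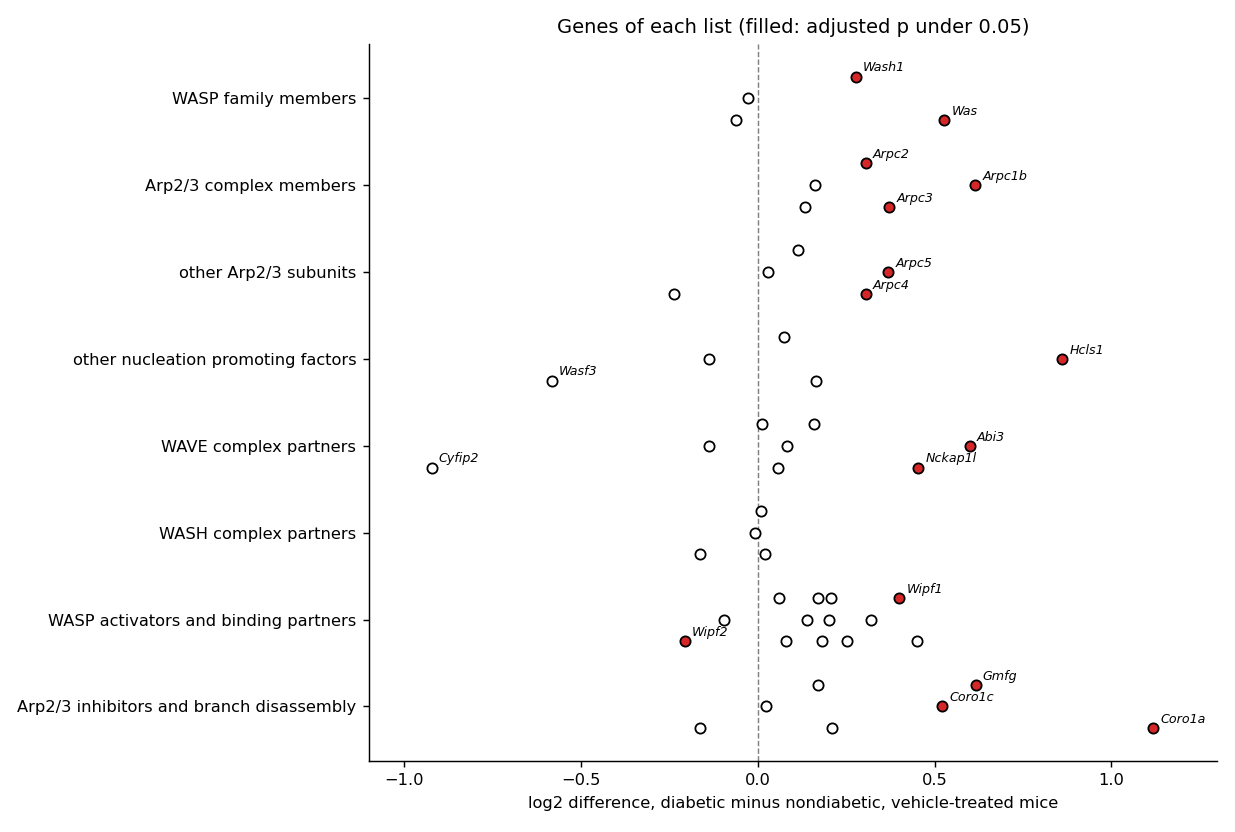
Log2 difference between vehicle-treated diabetic and vehicle-treated nondiabetic mice for the members (top 2 rows) and for 42 genes that work with them, by list. Filled points have an adjusted p under 0.05 in limma. Of the filled points, Wipf2 at -0.21 alone is negative, and Coro1a at 1.12 lies farthest to the right.

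ATG in diabetic mice was compared next, against the vehicle-treated diabetic mice of the comparison above, so that both comparisons share these 3 mice. None of the 9 members was called in limma, where 0% of all genes were, and in limma-voom the count was 0 as well. At an unadjusted p under 0.05 there were 2 members, Was and Wash1, both lower, against 4.51% of all genes, 2.81% as lower. In ATG-treated diabetic mice the log2 value of Was was 6.54, 6.72 and 6.80, on 86, 101 and 108 reads. Every one of these lay below the vehicle-treated diabetic mice (7.17 to 7.24) and within the span of the vehicle-treated nondiabetic mice (6.41 to 6.85). The log2 difference of Was with ATG was -0.53 (SE 0.16, 95% interval -0.88 to -0.18, unadjusted p = 0.00645, adjusted p = 0.917).

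Wash1 had log2 values of 10.44, 10.49 and 10.35 in ATG-treated diabetic mice. These were all below the vehicle-treated diabetic mice, and 2 of the 3 were above the vehicle-treated nondiabetic mice. Wash1 differed by -0.19 (SE 0.057, 95% interval -0.31 to -0.064, unadjusted p = 0.00664, adjusted p = 0.917). Arpc2 was the third member without overlap, with 13.44, 13.40 and 13.42 in ATG-treated against 13.45 to 13.55 in vehicle-treated diabetic mice, and a log2 difference of -0.076 (SE 0.073, adjusted p = 1.00). Set against Wasl within a mouse, a pair chosen after its values were seen, the log2 value of Was minus that of Wasl was -3.99 to -3.47 in vehicle-treated and -4.40 to -4.29 in ATG-treated diabetic mice. These spans do not overlap, and the exact two-sided permutation p was 0.1, the smallest that the 3 mice of each group allow. Of 9 pairs of related genes compared in this way, Nckap1l minus Nckap1, Coro1a minus Coro1b and Rac2 minus Rac1 were also lower with ATG in diabetic mice without overlap. With diabetes, Was minus Wasl was higher by 0.59 and again without overlap (exact permutation p = 0.1), as were 5 of the other 8 pairs. Groups did not overlap in 3 of 9 members, all lower with ATG, against 10.2% of all genes and 6.32% as lower.

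Arpc1b and Arpc3 stayed near the level of vehicle-treated diabetic mice. Their log2 values were 12.63, 12.43 and 12.41 for Arpc1b and 12.45, 12.32 and 12.20 for Arpc3 in ATG-treated diabetic mice 1 to 3. ATG-treated mouse 1 lay within the vehicle-treated range for Arpc3 and just above it for Arpc1b, and mice 2 and 3 lay below it for both genes. The log2 difference was -0.087 (SE 0.11, 95% interval -0.34 to 0.16) for Arpc1b and -0.10 (SE 0.073, 95% interval -0.26 to 0.056) for Arpc3. The intervals thus leave room for no change. They also hold a decrease of up to 0.34 and 0.26 and an increase of up to 0.16 and 0.056. For Actr2, Actr3, Wasl and Wasf2 the groups overlapped and the log2 difference was between -0.034 (Actr3) and 0.12 (Wasl), each with an adjusted p of 1.00.

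The leukocyte markers had a negative log2 difference with ATG in diabetic mice for 16 of 17 genes, none of which was called, with a median of -0.51, where 48.2% of all genes had a positive one. Their summed level was 251 to 410 RPM in ATG-treated and 382 to 506 in vehicle-treated diabetic mice. The log2 difference was negative for 5 of 5 erythrocyte markers (-1.45 to -0.56) and positive for 13 of 15 tubule markers (median 0.37), and none of these was called either. The summed level of the erythrocyte markers was 8.74 to 16.5 RPM with ATG and 9.16 to 40.1 with vehicle, and that of the tubule markers 5707 to 6509 and 2710 to 7977. With the tubule markers as a covariate the log2 difference was -0.53 (SE 0.17, adjusted p = 0.628) for Was and -0.20 (SE 0.059, adjusted p = 0.604) for Wash1. With the mean of the leukocyte markers as a covariate the log2 difference was -0.49 (SE 0.19) for Was and -0.20 (SE 0.071) for Wash1, each with an adjusted p of 1.00. Of the 42 genes that work with the members, 0 were called. The 3 with the lowest p were Coro1a (-0.70, SE 0.18, adjusted p = 0.876), Nckap1l (-0.45, SE 0.13, adjusted p = 0.917) and Rac2, the Rac GTPase of blood cells (-0.56, SE 0.21, adjusted p = 1.00). In all 3 the ATG-treated diabetic mice lay below the vehicle-treated diabetic mice without overlap.

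ATG in nondiabetic mice was compared with the vehicle-treated nondiabetic mice, which are also the reference of the diabetes comparison. None of the 9 members passed the adjusted test in limma, where 5.22% of all genes did, and 0 did in limma-voom. At an unadjusted p under 0.05 there were 3 members, Arpc1b, Wasf2 and Arpc2, all with a negative log2 difference, against 30.2% of all genes and 19.5% as lower. Arpc1b had log2 values of 11.80, 11.80 and 11.40 in ATG-treated and 11.82 to 12.09 in vehicle-treated nondiabetic mice. Mouse 3 lay far below the others, and mice 1 and 2 lay just under the lowest vehicle-treated mouse. Its log2 difference was -0.30 (SE 0.11, 95% interval -0.55 to -0.046, adjusted p = 0.121), and -0.16 without ATG-treated mouse 3.

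For Wasf2 the log2 value was 11.64, 11.78 and 11.39 with ATG, on 2712, 3139 and 2110 reads, and 11.78, 11.96 and 11.89 with vehicle. The groups did not overlap by a small margin, and mouse 3 was again lowest. Wasf2 differed by -0.27 (SE 0.12, 95% interval -0.53 to -0.014, adjusted p = 0.150), and -0.17 without ATG-treated mouse 3. Arpc2 had 12.98, 13.17 and 12.93 against 13.15 to 13.21, with overlap, and a log2 difference of -0.17 (SE 0.073, adjusted p = 0.159). Without ATG-treated mouse 2, the highest of these, Arpc2 was called (-0.24, adjusted p = 0.0212), and 3531 of all genes were called in place of 736. With each of the other mice left out that number was between 60, without vehicle-treated nondiabetic mouse 2, and 1420, without vehicle-treated diabetic mouse 3, so the share of all genes called in this comparison rests on single mice.

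Groups did not overlap in 2 of 9 members in nondiabetic mice, Arpc1b and Wasf2, both lower with ATG, against 34.4% of all genes and 20% as lower. For Was, Wash1, Arpc3, Actr2 and Actr3 the log2 difference was between -0.031 and -0.0028, and it turned positive in all 5 when the libraries were scaled by median ratios (0.016 to 0.044), so no direction is given for them. The log2 difference of Wasl was -0.18 (SE 0.11, adjusted p = 0.300). In these libraries the summed level of the leukocyte markers was 159 to 205 RPM with ATG and 219 to 332 with vehicle, and that of the tubule markers was 17906 to 25963 and 12202 to 15192. Of 10 mesangial markers 8 were called lower, and of 10 endothelial markers 6. None of the 10 podocyte markers was called, all 10 had a negative log2 difference (median -0.58), and their summed level was 11097, 19393 and 7927 RPM in ATG-treated mice 1 to 3 and 17431 to 19140 RPM with vehicle. ATG-treated mouse 3, the lowest of the 12 mice for the podocyte markers, was also the lowest of them for the endothelial (2379 RPM) and mesangial (734 RPM) markers and the highest for the summed tubule markers. The same mouse was the lowest for Arpc1b and Wasf2, and the part of podocyte, endothelial and mesangial markers in these values was not tested. Of the 42 genes, Wipf1 alone was called (-0.35, SE 0.080, adjusted p = 0.0356), and Abi3 (-0.56, SE 0.15, adjusted p = 0.0510) and Trip10, a WASP-binding membrane-curving protein (-0.33, SE 0.087, adjusted p = 0.0512), lay next to the threshold.

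Whether ATG acted differently with and without diabetes was tested as the difference between both ATG effects. None of the 9 members was called in limma, against 0.546% of all genes. At an unadjusted p under 0.05 there were 2 members, against 12.9% of all genes. The difference was -0.52 (SE 0.22, 95% interval -1.01 to -0.024, adjusted p = 0.363) for Was, which was at about the same level in both nondiabetic groups (6.69 ± 0.25 with vehicle and 6.67 ± 0.23 with ATG, SD, n = 3 each). It was 0.38 (SE 0.17, 95% interval 0.012 to 0.75, adjusted p = 0.372) for Wasf2. The intervals of the other 7 members included 0. A different response to ATG with diabetes was therefore not shown for any member in these 12 mice.

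**Figure D5:**
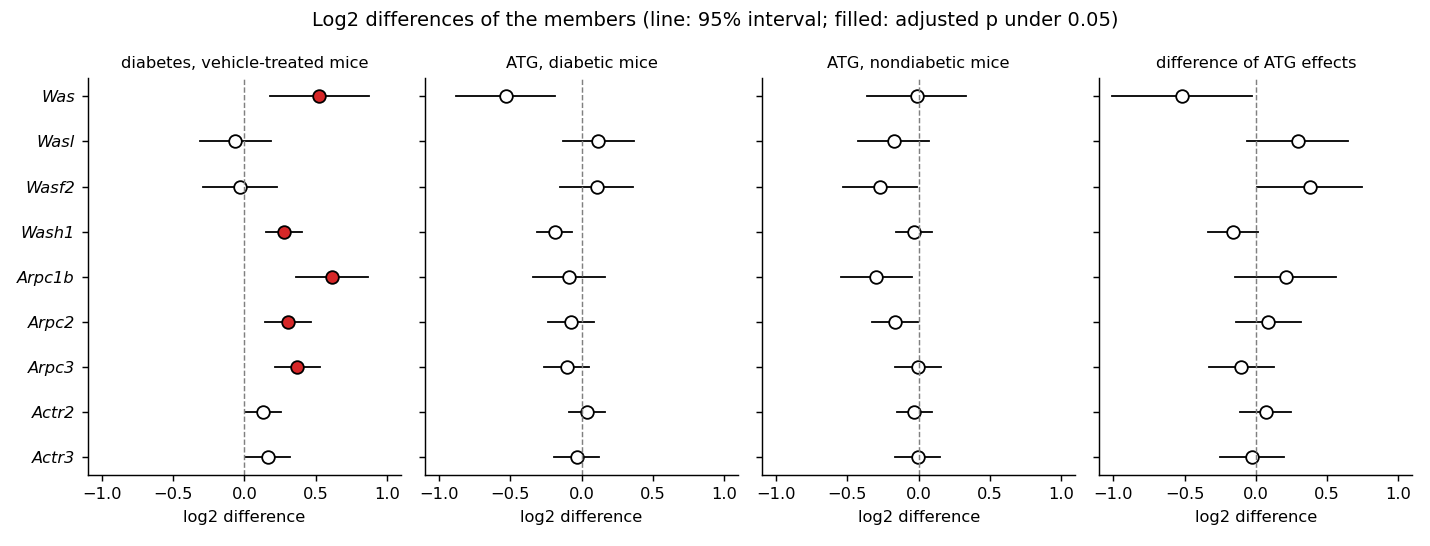
Log2 difference of each member in the 4 comparisons, with its 95% interval in limma. Filled points have an adjusted p under 0.05 over all genes. The 5 filled points, Was, Wash1, Arpc1b, Arpc2 and Arpc3, are all in the diabetes panel and positive.

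Across the 12 mice the members varied together to different degrees. As a description over mice that share 4 groups and the same library preparation, Pearson's r of log2 values was 0.95 between Arpc1b and Arpc2, 0.93 between Arpc1b and Arpc3, 0.92 between Arpc2 and Actr2 and 0.83 between Wasl and Wasf2. It was -0.15 between Was and Wasl and 0.041 between Was and Wasf2. For Was the highest r was with Wash1 (0.75), and for Wasl it was with Wasf2.

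The genes with the pattern most like a member over the 12 mice, by Pearson's r, were Flot1 (0.994), Lmna (0.992) and Rhog (0.992) for Arpc1b, and 9530082P21Rik (0.991), Tnfrsf26 (0.988) and Pon2 (0.987) for Arpc2. For Wasf2 they were Kirrel2 (0.967), Pkd1 (0.966) and Lats2 (0.959), for Wasl they were Npat (0.965), Son (0.953) and Styx (0.950), and for Was they were Rassf4 (0.914), Scap (0.913) and Alkbh6 (0.881). For Wash1 they were Eno3, Tssc4 and Arl2 (each 0.941), for Arpc3 they were Rps16 (0.969), Ube2v1 (0.967) and Bmp6 (0.965), for Actr2 the entry written as 15-Sep (0.974), Sumo2 (0.974) and Mtmr2 (0.969), and for Actr3 they were Msr1 (0.926), Trappc6b (0.917) and Tpcn2 (0.916). No member was among the 3 closest genes of another member.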

How the data were processed

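The study's design was 12 glomerular mRNA libraries, 1 per mouse, grouped by the condition in the labels, with mouse numbers as in the labels (the nondiabetic mice without a number are mouse 3). Each deposited table is for 1 mouse and gives a log2 value and an mm10 position for each of 14096 genes. Every one of these genes had a linear value of at least 100 in some mouse, so shares of all genes are over genes that reached that level. Per the labels' processing notes limma was used. The aligner and counter are not given in the sources used here. On the linear scale, 83.4 to 84.1% of a library's values under 2000 are whole multiples of 1 step within 0.02 reads, so the log2 values are reads times 1 factor per library, not divided by length. Divided by that step, a mouse had 23.6 to 29.8 M reads on these genes. Library pairs of a group had a Pearson r of 0.972 to 0.994. Averaged over genes, they differed by 12.0 to 123 times the sampling variance of their reads, so no library is a copy of another. For how many genes the variation among mice exceeded counting error was not tested. The label prefix that could mark a batch is confounded with the group.

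Members were matched by symbol. The members, gene lists and tests were chosen with earlier results of these data known. The log2 values were fitted with limma 3.58.1 in R 4.3.3, with a mean-variance trend, all 12 mice in 1 fit and Benjamini-Hochberg adjustment over all genes. A gene was called at an adjusted p under 0.05, and SE and 95% intervals come from the moderated fit. The fit was tested on simulated data. Named beside the members were the 10 genes of 6 lists of partners with the lowest p for diabetes, the 3 with the lowest p in each ATG comparison, the other Arp2/3 subunits and, for likeness, the 3 genes with the highest r. Cttn and Btk are outside this rule and were named after their values were seen. Alternatives were median-ratio scaling, a minimum mean log2 value of 8, only the compared groups, a replicate block, each mouse left out, both unnumbered mice left out, no trend, limma-voom on the recovered reads, a threshold of 0.1 and the mean of tubule or leukocyte markers as a covariate. Figures used matplotlib 3.10.9 in Python 3.11.15.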

Additional observations from a re-analysis of the deposited data

How the results depend on the processing

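The number of members called for diabetes (5) was 4 to 5 under median-ratio scaling, the minimum mean log2 value, only the compared groups, both unnumbered mice left out, no trend, limma-voom and a threshold of 0.1. It was 0 with the tubule covariate and 0 with the leukocyte covariate, and 2 to 5 with each mouse left out. With the replicate block it was 3 (Wash1, Arpc1b and Arpc3), and 1375 genes in all were called in place of 2659. Same-numbered mice did not deviate together throughout. The correlation of their deviations was -0.0254 and -0.257 between the vehicle-treated groups, 0.315, 0.0537 and 0.339 between the diabetic groups, and as low as -0.590 in other pairs. The number of members called for ATG in nondiabetic mice was 0 to 1 with each mouse left out, and for the other comparisons 0 under every alternative run. Only the compared groups could not be used for the difference between both ATG effects, which needs all 4.

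Members that were not called changed sign as follows. With the leukocyte covariate, the log2 difference was 0.045 for Wasl and 0.045 for Wasf2 with diabetes, 0.000103 for Arpc1b and 0.040 for Actr3 with ATG in diabetic mice, and 0.030 for Was, 0.067 for Arpc3 and 0.067 for Actr3 with ATG in nondiabetic mice. For ATG in nondiabetic mice, median-ratio scaling gave 0.033 for Was, 0.016 for Wash1, 0.044 for Arpc3, 0.017 for Actr2 and 0.040 for Actr3, the tubule covariate gave 0.021 for Wasl, 0.0066 for Actr2 and 0.033 for Actr3, and leaving out both unnumbered mice gave 0.036 for Arpc3. Leaving out both unnumbered mice also gave 0.041 for Actr3 in the difference between both ATG effects. With each mouse left out, the log2 difference for ATG in nondiabetic mice ranged from -0.15 to 0.091 for Was, from -0.042 to 0.026 for Arpc3 and from -0.052 to 0.047 for Actr3. That of Actr3 ranged from -0.061 to 0.013 for ATG in diabetic mice and from -0.082 to 0.020 for the difference between both ATG effects, and that for diabetes from -0.13 to 0.032 for Wasf2 and from -0.18 to 0.042 for Wasl. The causes were not tested. With 3 mice a group, the intervals given for members that were not called still hold changes of the sizes at their ends.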
